A study of Homo sapiens with 9 samples.

Results

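MP41 is an established line of uveal melanoma (UM), the cancer that arises from the pigment cells of the eye, and it carries a mutated GNA11 gene. The results below describe its transcriptome at 0 h, the start of a transfection time course, in 1 polyA RNA-seq library of the 9 in the series. That library was chosen by its time label alone, and it gave a value for 14839 genes. The study cultured MP41 cells in RPMI-1640 with fetal bovine serum and gave them 66 nM of a synthetic miR-16 or of a control mimic, miR-CTR. Each mimic was followed at 6, 12, 24, and 48 h, which gave 8 transfected libraries beside the one at 0 h. The label of the 0 h sample names the control mimic, and the sample is taken here as untransfected because of its time. The question addressed is which genes of the lineage, of signalling, of metabolism, and of the non-coding class were abundant in these cells. There was no replicate of the 0 h condition and no contrast, so no p-value was computed. The 8 transfected libraries are given only to show how far a level moved between libraries of the same line. Mimic, time, and handling cannot be separated in that comparison. Some genes are described below as above or below all 8 transfected libraries at 0 h. The share of all genes in such a position is not given, so it is a description only.

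Melanocytes come from the neural crest. Their identity is set by the transcription factors MITF and SOX10, which switch on the enzymes of melanin synthesis and the proteins of the melanosome, the organelle that holds the pigment. In most UM an activating mutation of GNAQ or GNA11, the alpha subunits of Gq proteins, drives phospholipase C beta, protein kinase C, RASGRP3, and the ERK pathway, and through TRIO, RHOA, and RAC1 also the co-activator YAP1.

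The levels are given on a pair of scales. The deposited log2 value is the normalized number of reads of a gene, and it grows with the length of the transcript. To compare genes with each other, a TPM level (reads per base of transcript, scaled to the same total in every library) was computed from it with the length of the union of each gene's exons, for the 13517 genes whose symbol was found in GENCODE 29. The interval beside a TPM value is the exact Poisson 95% interval of its reads, and it covers counting error only, not the spread between cultures. The reads recovered from the deposited values of the 14839 genes came to 22090000 in the 0 h library and 20280000 to 27360000 in the others. Reads outside these genes are not counted. The median gene of the 0 h library had 546 reads and a log2 value of 9.15, and 1 gene was at 0. Fewer than 10 reads were found for 110 genes and fewer than 30 for 1342 genes (9.04%), so levels at the low end are imprecise. Some exons also overlap those of other genes, and since the strandedness of the counting is not given in the sources used here, reads there cannot be told apart. The share of exonic bases that overlap was 62.4% for FTH1, 46.6% for TYMS, 44.5% for MC1R, 43.2% for CDK4, and 40.5% for DUSP6. It was 36.7% for SRSF2, 33.4% for LDHB, 32.9% for SLC24A5, 26.5% for IER3, and 25.6% for SMC4. The median TPM was 19.9, with quartiles of 6.49 and 51.4. A level of 100 TPM or more is called high below, and 1726 of the 13517 genes (12.8%) reached it. The 416 most abundant genes held 50% of the TPM, 102 genes reached 1000 TPM, and 693 stayed under 1 TPM.

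TYRP1, which encodes a melanosomal enzyme of the melanin pathway, had the highest log2 value of all 14839 genes at 0 h (17.88, from 232211 reads). The gene lies on chromosome 9 from 12685439 to 12710290 (GRCh38, forward strand). Its log2 value in the 8 transfected libraries ran from 17.45 to 17.84 with a median of 17.73, and the 0 h library was above all of them. HSP90AA1, a cytosolic chaperone, came next at 17.50, followed by the mitochondrially encoded MT-CO1 at 17.34, GAPDH at 16.64, and ACTG1 at 16.63. PMEL, which forms the fibrils on which melanin is laid down, was 6th with a log2 value of 16.62. In TPM, which corrects for length, TYRP1 ranked 7th (9557 TPM, 9519–9596) and PMEL 23rd (3827 TPM, 3803–3851). The genes above TYRP1 in TPM were 4 mitochondrially encoded genes of the respiratory chain and ATP synthase and a pair of genes under 100 bases long. These short genes were MIR6723 (46210 TPM over 89 bases) and the pseudogene RPL41P1 (9752 TPM over 81 bases). MIR6723 lies wholly within the exons of MTCO1P12, a nuclear copy of mitochondrial sequence on the other strand of chromosome 1 (100% of its bases). Whether its 26709 reads came from a microRNA precursor or from mitochondrial transcripts cannot be told apart here.

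**Figure D1:**
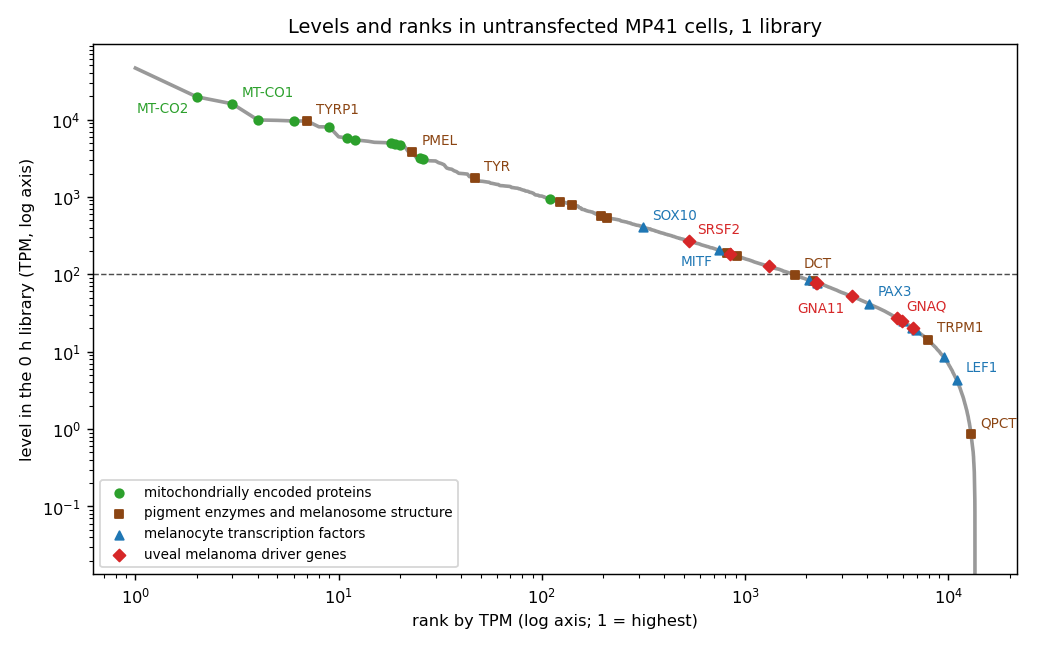
Level in TPM of every gene with a length in the 0 h library against its rank, both on log axes, in 1 library. The grey line is all 13517 genes, the symbols are the members of 4 gene lists, and the dashed line is 100 TPM. TYRP1 (9557 TPM) stood among the mitochondrially encoded genes, SOX10 (411 TPM) and MITF (205 TPM) lay above the dashed line, and GNA11 (51.7 TPM) and GNAQ (27.4 TPM) lay below it.

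Of the 13 pigment genes with a value, 9 were high (69.2%, against 12.8% of all genes), and the median was 540 TPM. Below TYRP1 and PMEL came TYR, the enzyme that starts melanin synthesis from tyrosine (1762 TPM, 1744–1781). GPNMB, a melanosomal glycoprotein, was at 862 TPM and MLANA, a melanosome protein and diagnostic antigen, at 793 TPM. The melanosomal transport proteins MFSD12 and SLC45A2 were at 563 and 540 TPM, GPR143, the receptor lost in ocular albinism, at 190 TPM, and SLC24A5, an ion exchanger, at 171 TPM. These 9 genes spanned a wide range, but each was above at least 93.3% of all genes. DCT, the third enzyme of the pathway, was just under the threshold at 98.4 TPM (95.6–101). TRPM1, a cation channel whose gene also hosts a microRNA, was at 14.3 TPM and QPCT, a glutaminyl cyclase, at 0.856 TPM from 15 reads. OCA2 had no value here.

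The 3 enzymes of melanin synthesis were far from equal. In the 0 h library TYRP1 was 5.42 times as high as TYR per length (counting interval 5.36–5.48) and TYR was 17.9 times as high as DCT (17.4–18.5). The same order was found in all 9 libraries. For both ratios the 0 h library was the highest of the 9, and the lowest library gave 2.46 for TYRP1 over TYR and 6.33 for TYR over DCT. DCT moved the most of the 3, with a log2 value of 12.29 at 0 h and a lowest, median, and highest value of 12.40, 12.89, and 14.38 in the transfected libraries. TRPM1 was also below all 8 transfected libraries at 0 h (log2 9.49, against 10.01 to 11.72). TYR had a log2 value of 15.13 at 0 h and MLANA 14.01, and both lay within the range of the transfected libraries (15.08 to 15.88 and 13.95 to 14.88).

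**Figure D2:**
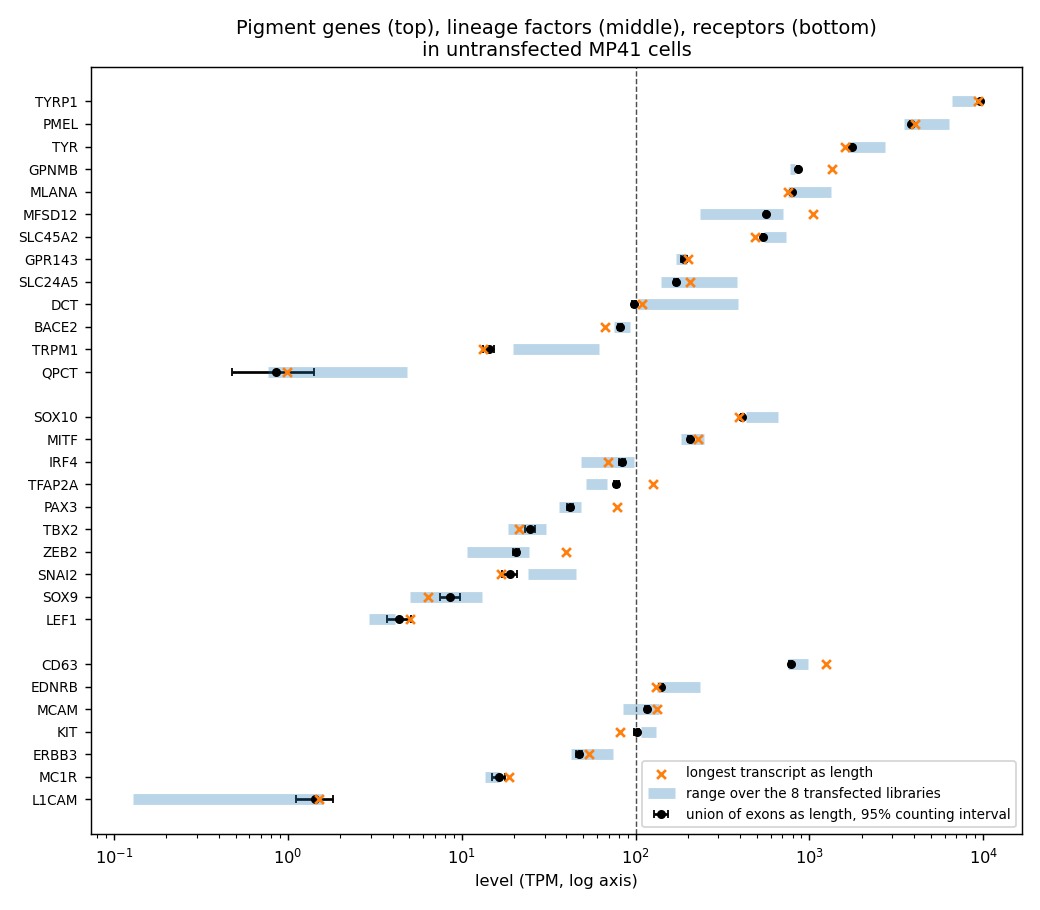
Level in TPM (log axis) of the pigment genes, the lineage transcription factors, and the surface receptors. Black points are the 0 h library with its 95% counting interval, orange crosses are the same library with the longest annotated transcript as length, and blue bars are the range over the 8 transfected libraries. TYRP1 at 0 h (9557 TPM) lay above its range in the transfected libraries (6572 to 8990 TPM), and TRPM1 at 0 h (14.3 TPM) lay below its own (19.8 to 61.4 TPM).

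The core promoters of these genes were searched for motifs of the MITF type. Since MITF is known to switch on genes of this kind, a high share of its motif was not an independent finding. MITF is known to bind an extended E-box, the M-box, whose core TCATGTG was searched on both strands between 250 bases before and 50 bases after each gene start of RefSeq (GRCh38.p14). Of the 13 pigment genes 10 had a promoter in the table, and 5 of these 10 held the core, namely GPNMB, GPR143, SLC24A5, TYR, and TYRP1. Over all 27305 promoters, 817 held it (2.99%), and among the 9599 promoters of genes with a value in this library the share was 1.81%. The second motif searched, the palindromic E-box CACGTG, does not overlap the core and was found in 0 of the 10 pigment promoters, in 7.43% of all promoters, and in 10.4% of those of genes with a value. It was present in 6 of the 16 promoters of genes of melanosome assembly and transport (37.5%). Outside the pigment list, the M-box core was found in the promoters of ZEB2, BLOC1S3, and CD63 among the lineage factors, the assembly genes, and the receptors. A match is a description of the letters and not of binding. The sites in the pigment promoters are printed in the direction of the gene, with the core or its complement (CACATGA) in capitals. TYRP1 and TYR carry it on the strand of the gene, and the other genes carry it on the opposite strand.
TYRP1, chr9:12693230-12693256, forward strand: tggaagggaaTCATGTGctgatcaagt
TYR, chr11:89177760-89177786, forward strand: gaaaagtcagTCATGTGcttttcagag
GPNMB, chr7:23246642-23246668, forward strand: gagtcataagCACATGAgttgtaagag
GPNMB, chr7:23246703-23246729, forward strand: ttaataccatCACATGAtcctccccga
GPR143, chrX:9765892-9765918, reverse strand: aggcccagggCACATGAtgccgccccc
GPR143, chrX:9765864-9765890, reverse strand: gcccgcccagCACATGAcccaggcagg
SLC24A5, chr15:48120965-48120991, forward strand: ggagactcctCACATGAtccagtttaa

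Among 10 transcription factors of the lineage, 2 were high (20.0%, against 12.8% of all genes). SOX10, which maintains the melanocyte fate, was at 411 TPM (403–420) and MITF, the master regulator of pigment cells, at 205 TPM (201–209). IRF4 followed at 83.6 TPM, TFAP2A at 77.5 TPM, and PAX3, which acts upstream of MITF, at 41.8 TPM. SOX9, the close relative of SOX10, was at 8.59 TPM, and SOX10 was 47.9 times as high (41.9–54.7). LEF1, a partner of beta-catenin in WNT signalling, was the lowest of the list at 4.36 TPM. The log2 value of SOX10 was 13.33 at 0 h, below all 8 transfected libraries (13.41 to 14.13), while that of MITF was 13.28 and within their range (13.15 to 13.67). TFAP2A was above all of them at 0 h (12.08, against 11.63 to 11.95). MITF was 4.91 times as high as its relative TFE3, and TFE3 was 27.3 times as high as TFEB, which had 56 reads. The latter ratio was 15.7 with the longest transcript as length and ran from 11.9 to 37.0 over the 9 libraries.

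**Figure D3:**
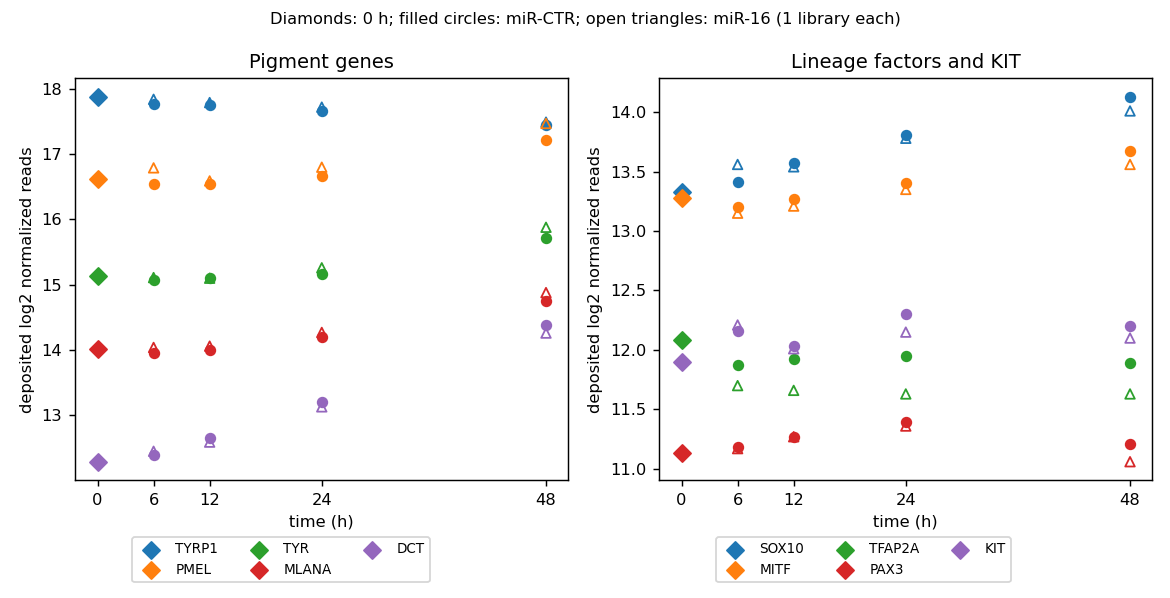
Deposited log2 value of 5 pigment genes (left) and of 4 lineage factors and KIT (right) in each of the 9 libraries by time in hours, with 1 library per point. Diamonds are the 0 h library, filled circles miR-CTR, and open triangles miR-16. DCT was lowest at 0 h (12.29) and reached 14.38 at 48 h with miR-CTR, whereas TYRP1 was highest at 0 h (17.88).

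The 21 genes of melanosome assembly and transport had a median of 40.4 TPM. Of these, 5 were high (23.8%, against 12.8% of all genes). RAB38 and RAB32, the small GTPases that send melanin enzymes to the maturing melanosome, were at 2000 and 375 TPM. The adaptor subunits AP3D1 and AP1S2, which sort melanosome cargo, were at 141 and 108 TPM. The members of the complex that tethers melanosomes to actin were lower, with 66.5 TPM for MLPH, 41.5 TPM for the motor protein MYO5A, and 30.7 TPM for RAB27A. BLOC1S3 was the lowest at 8.71 TPM.

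Of 10 melanocyte surface receptors and antigens, 7 had a value and 4 of them were high (57.1%, against 12.8% of all genes). CD63, a tetraspanin of melanosomes and endosomes, was at 781 TPM, the endothelin receptor EDNRB at 140 TPM, the adhesion molecule MCAM at 116 TPM, and the receptor tyrosine kinase KIT at 102 TPM. MC1R, the receptor of alpha-MSH, was at 16.3 TPM and L1CAM at 1.44 TPM. KIT stood close to the threshold (counting interval 98.5–105) and was under it, at 81.6 TPM, with the longest transcript as length. Of 15 neural crest and stem cell genes, 10 had a value. Of these 10, 3 were high, a share above the 12.8% of all genes. The 3 were the intermediate filaments VIM (1184 TPM) and NES (205 TPM) and SOX4 (100.9 TPM, or 75.35 TPM with the longest transcript as length). S100B was at 41.3 TPM, and the repressors SNAI1 and ZEB1 were at 5.20 and 1.69 TPM. FOXD3, TFAP2B, SOX2, S100A4, and S100A6 had no value here. CTNNB1, which encodes beta-catenin, was at 512 TPM. N-cadherin (CDH2) was at 12.2 TPM, and CDH1 had no value here.

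The HOX list showed a single high gene. Of 39 HOX genes 21 had a value, with a median of 15.6 TPM and 4.76% high, against 12.8% of all genes. HOXD1 was at 248 TPM (239–257), and the next, HOXC10, was at 31.8 TPM. In the GENCODE annotation 58.1% of the exonic bases of HOXD1 overlap other genes, among them the antisense gene HAGLR. Of 19 cancer-testis antigens 7 had a value. PRAME, a marker of metastatic risk in UM, was the only high one (14.3%, against 12.8% of all genes), at 227 TPM (221–233). GAGE1 followed at 32.9 TPM, but it belongs to a family of near-identical copies, and its reads may be split between them.

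The genes of the UM prognostic classes are commonly read as class 1 markers, which are lower in tumors of poor outcome, and class 2 markers, which are higher. Of 12 genes with a value, 3 were high, a share above the 12.8% of all genes. These were the class 2 marker ECM1 at 157 TPM, the class 1 marker ID2 at 127 TPM, and the phosphatase PTP4A3 at 109 TPM. The count was 2 with the longest transcript as length and 2 in the median of the 8 transfected libraries. It fell to 0 at 200 TPM and rose to 7 at 50 TPM. The serotonin receptor HTR2B was at 82.0 TPM and RAB31 at 75.8 TPM. The other class 1 markers ran from EIF1B at 61.4 TPM, FXR1 at 53.2 TPM, and LTA4H at 38.3 TPM through MTUS1 at 16.9 TPM, ROBO1 at 16.5 TPM, and LMCD1 at 12.4 TPM to SATB1 at 4.92 TPM. The class 2 marker CDH1 had no value here. HTR2B, a class 2 marker, had a log2 value of 10.28 at 0 h, above all 8 transfected libraries (9.01 to 9.96, median 9.68). Exons of PSMD1 on the other strand overlap 24.9% of the exonic bases of HTR2B.

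Markers of other cell types were at low levels or without a value, and none of the 13 with a value was high. Of 10 fibroblast markers 5 had a value, from 0.110 TPM for FAP to 6.00 TPM for LUM, with COL1A1 at 4.78 TPM. Of 11 immune markers CD68 (2.95 TPM) and CD74 (1.79 TPM) had a value. Other annotated genes overlap 85.8% of the exonic bases of CD68. Of 10 markers of retinal pigment epithelium and photoreceptors 4 had a value, at 0.753 to 5.51 TPM, the highest being BEST1, whose exons overlap those of FTH1. EGFL7 (57.4 TPM), the single endothelial marker with a value of 8, and ESRP1 (49.5 TPM), the single epithelial marker with a value of 10, were the exceptions above the median gene. The defining markers PECAM1, VWF, PTPRC, EPCAM, KRT8, and RPE65 had no value here.

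**Figure D4:**
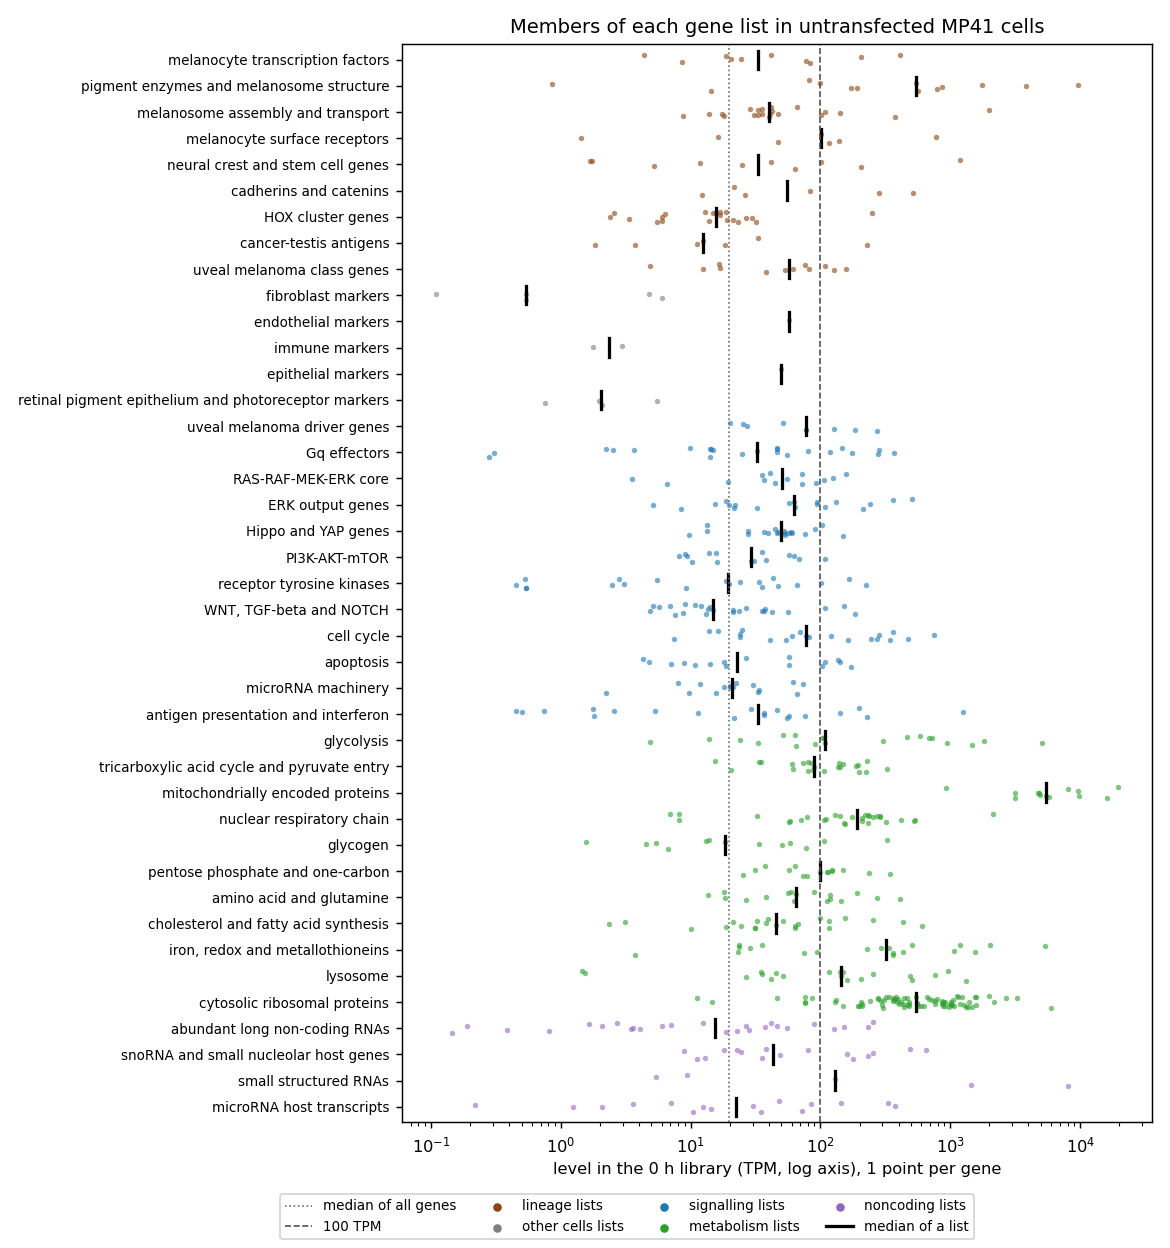
Level in TPM (log axis) of each member of the gene lists in the 0 h library, 1 point per gene, with the list median as a black bar. The dotted line is the median of all genes (19.9 TPM), the dashed line is 100 TPM, and colors give the section. The mitochondrially encoded proteins (median 5469 TPM), the ribosomal proteins (547 TPM), and the pigment genes (540 TPM) lay furthest to the right.

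In signalling, 44 of 217 listed genes with a length were high (20.3%, against 12.8% of all genes). The median of the 217 was 35.4 TPM. All 9 driver genes of UM with a value were above the median gene, and 3 were high (33.3%, against 12.8% of all genes). These were the splicing factors SRSF2 (271 TPM) and SF3B1 (185 TPM) and the translation initiation factor EIF1AX (128 TPM). BAP1, the tumor suppressor on chromosome 3, was at 77.6 TPM. GNA11, the mutated driver of this line, was at 51.7 TPM (49.6–54.0) and GNAQ at 27.4 TPM. GNA11 was thus 1.89 times as high as GNAQ, and it was the higher one in all 9 libraries (ratio 1.30 to 2.36). The phospholipase PLCB4 was the lowest driver gene at 20.1 TPM (18.8–21.4), within counting error of the median gene, and CYSLTR2 had no value here. Values per gene do not show which allele of GNA11 the reads came from.

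Downstream of Gq, 6 of 23 effectors were high (26.1%, against 12.8% of all genes). The GTPases RHOA, RAC1, and ARF6 were at 366, 281, and 148 TPM, and the beta subunits GNB2 and GNB1 at 277 and 174 TPM. RASGRP3, the exchange factor that links diacylglycerol to RAS, was at 55.0 TPM, PTK2, which encodes FAK, at 79.6 TPM, and TRIO at 14.2 TPM. Among the protein kinase C genes, PRKCH was highest at 46.0 TPM, followed by PRKCA at 32.4 TPM, PRKCD at 24.8 TPM, and PRKCE at 9.88 TPM. PRKCB was near the bottom of the library at 0.306 TPM, with 22 reads. The inositol trisphosphate receptors were low as well, with ITPR1 at 2.52 TPM, ITPR2 at 2.23 TPM, and ITPR3 at 0.281 TPM.

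The core of the ERK pathway held a clear order among related genes. MAP2K2 (156 TPM) was 4.39 times as high as MAP2K1, or 7.12 times with the longest transcript as length. NRAS (107 TPM) was 2.60 times as high as HRAS, or 1.73 times with the longest transcript. BRAF was at 6.61 TPM, and ARAF (72.2 TPM) was 10.9 times as high (10.1–11.8), or 6.30 times with the longest transcript. All 3 orders were found in each of the 9 libraries. Of 19 genes that ERK is known to induce or that restrain it, 6 were high (31.6%, against 12.8% of all genes). The early response gene IER3 was at 507 TPM, cyclin D1 (CCND1) at 363 TPM, MYC at 239 TPM, the factor ETV5 at 214 TPM, and the ERK phosphatase DUSP6 at 133 TPM. EGR1, another early response gene, was at 5.14 TPM and DUSP5 at 8.39 TPM.

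In the Hippo pathway, whose kinases restrain YAP1, 2 of 20 genes were high, a share below the 12.8% of all genes. These were the co-activator YAP1 (148 TPM) and its target CTGF (103 TPM, or 77.1 TPM with the longest transcript as length). The count was 1 with the longest transcript, in the 6 h miR-CTR library, and in the median of the 8 transfected libraries. It was 0 at 200 TPM, 10 at 50 TPM, and 3 with a total without mitochondrially encoded genes. The target CYR61 was at 90.5 TPM and the co-activator WWTR1, also called TAZ, at 76.3 TPM. LATS2 (59.9 TPM) was 6.16 times as high as LATS1 (9.73 TPM). YAP1 was 1.94 times as high as WWTR1 at 0 h (1.87–2.02), but this order held in 8 of the 9 libraries and the ratio ran from 0.773 to 2.73. CTGF had a log2 value of 10.67 at 0 h, and its lowest, median, and highest value in the transfected libraries was 7.02, 10.20, and 10.70.

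Of 20 receptor tyrosine kinases, the hepatocyte growth factor receptor MET (224 TPM), MERTK (166 TPM), and KIT were high (15.0%, against 12.8% of all genes). MET had a log2 value of 13.38 at 0 h, below all 8 transfected libraries (13.68 to 14.20). At the low end, ERBB4 was at 0.450 TPM and RET at 0.536 TPM. In the PI3K list only the small GTPase RHEB was high (109 TPM), which is 6.67% of 15 genes against 12.8% of all genes. AKT1 was at 68.4 TPM and the kinase MTOR at 35.7 TPM. In the list of WNT, TGF-beta, and NOTCH genes, 3 of 25 were high (12.0%, against 12.8% of all genes). The secreted WNT antagonist SFRP1 was the highest at 184 TPM, followed by ID3 at 153 TPM and TGFBR1 at 109 TPM. AXIN2, a feedback gene of WNT signalling, was the lowest of the 25 at 4.86 TPM.

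The cell cycle list had 9 high genes among 21 (42.9%, against 12.8% of all genes). PCNA, the sliding clamp of replication, was at 754 TPM and TOP2A at 272 TPM. Cyclin D1 was 15.1 times as high as CCND3, or 6.98 times with the longest transcript as length, and the ratio ran from 11.4 to 50.5 over the 9 libraries. CDK4 (284 TPM) was 11.8 times as high as CDK6. The inhibitor CDKN1A was at 245 TPM, CDKN2A at 24.8 TPM, and CDKN2B at 7.45 TPM. MKI67, the proliferation marker, was at 69.4 TPM. CDK2 was listed at 476 TPM, but 16.8% of its exonic bases overlap other genes, PMEL among them, on the other strand, and reads of PMEL cannot be told apart from those of CDK2 there without strand. Among 16 genes of the apoptosis list, 5 were high (31.25%, against 12.8% of all genes), and 3 with the longest transcript as length. BAX (172 TPM), MCL1 (142 TPM), and MDM2 (109 TPM) were among the 5, whereas BCL2 was at 7.05 TPM and BCL2L11 at 4.33 TPM.

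None of the 16 genes of the microRNA machinery was high, and their median was 20.7 TPM, against 19.9 TPM for all genes. CNOT1, the scaffold of the deadenylase complex, was at 72.8 TPM, the nuclear RNase DROSHA at 66.1 TPM, and DICER1 at 32.8 TPM. AGO2 (20.3 TPM, 19.4–21.1) and AGO1 (20.1 TPM, 19.2–21.1) could not be ordered, since the interval of their ratio held 1 (1.01, 0.946–1.07). AGO2 was the higher one in 4 of 9 libraries. AGO1 was 2.51 times as high as AGO4 and AGO4 was 3.61 times as high as AGO3 (2.22 TPM), and both orders held in all 9 libraries. In the antigen presentation list 4 of 20 genes were high (20.0%, against 12.8% of all genes), among them HLA-C at 227 TPM, which was 2.98 times HLA-B. Reads of related genes of this class may be split between them. Beta-2-microglobulin (B2M) was at 141 TPM and CD274, which encodes PD-L1, at 0.449 TPM from 12 reads.

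Within the 0 h library 30 pairs of related genes were compared per length, and 28 had the same order in all 9 libraries. The exceptions were YAP1 over WWTR1 and AGO2 over AGO1. The choice of length turned 1 of the 30 pairs, MDH2 over MDH1.

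**Figure D5:**
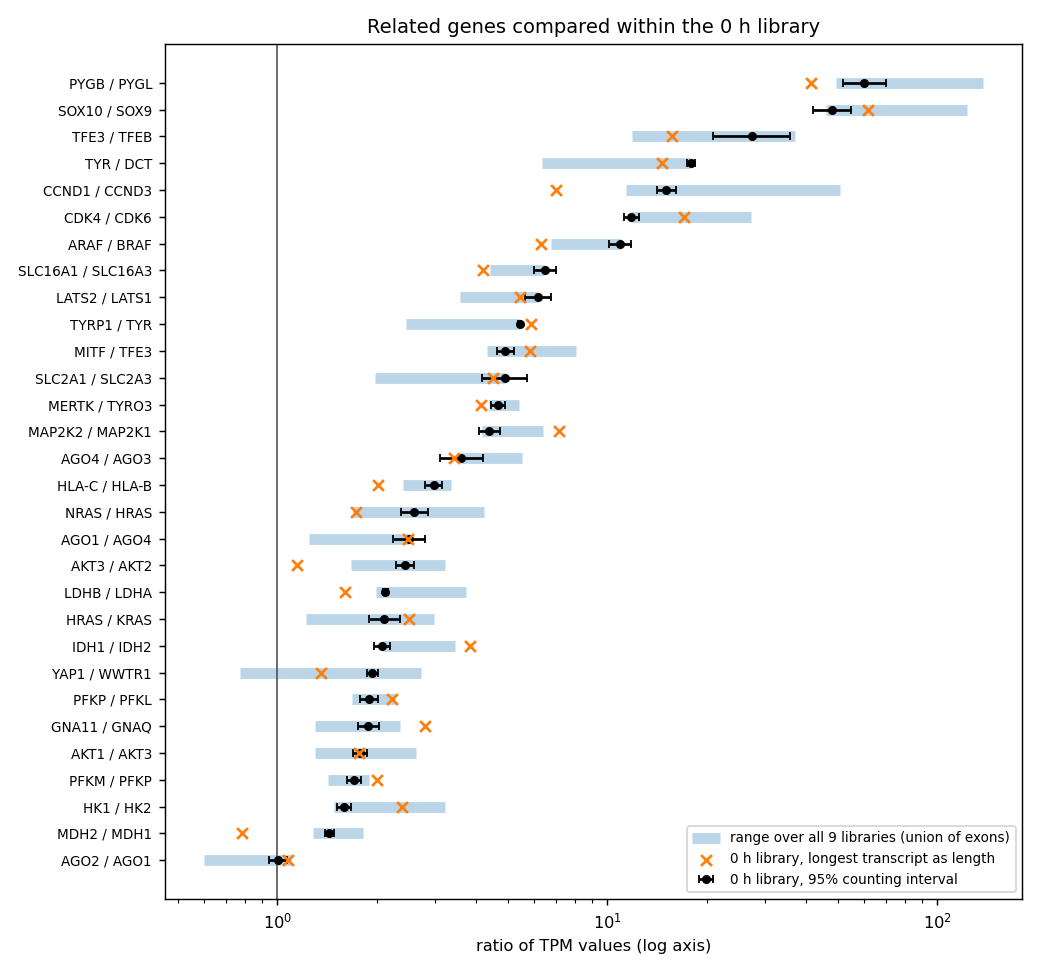
Ratio of TPM values (log axis) between related genes of the same family. Black points are the 0 h library with a 95% counting interval, orange crosses use the longest transcript as length, and blue bars are the range over all 9 libraries. PYGB over PYGL was the largest ratio (60.1), AGO2 over AGO1 lay at 1.01, and the orange cross of MDH2 over MDH1 (0.784) lay left of 1.

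Metabolic genes, a group that takes in the ribosomal proteins and the mitochondrial genome, had the highest median of the 4 sections. Of 278 with a length 181 were high (65.1%, against 12.8% of all genes), with a median of 201 TPM over the 278. All 13 mitochondrially encoded proteins were high. MT-CO2, a subunit of cytochrome c oxidase, was at 19670 TPM and MT-CO1 at 15950 TPM, while MT-ND6, the single protein gene on the other mitochondrial strand, was the lowest at 932 TPM. MT-CO1 had a log2 value of 17.34 at 0 h, below all 8 transfected libraries (17.42 to 18.01). The 13 genes held 9.61% of the TPM and 2.63% of the reads. Of 30 nuclear genes of the respiratory chain 22 were high (73.3%, against 12.8% of all genes). The ATP synthase subunit ATP5B (2121 TPM) led them. PPARGC1A, the co-activator of mitochondrial biogenesis, was the lowest at 6.92 TPM.

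In glycolysis 12 of 20 genes were high. GAPDH was at 5078 TPM, ENO1 at 1816 TPM, and PKM at 460 TPM. LDHB (1467 TPM) was 2.13 times as high as LDHA (690 TPM), and this order held in all 9 libraries and under both lengths. The glucose transporter SLC2A1 was at 24.0 TPM and SLC2A3 at 4.91 TPM. In the tricarboxylic acid cycle 11 of 23 genes were high (47.8%, against 12.8% of all genes). The isoforms MDH2 (327 TPM) and MDH1 (227 TPM) led, and their order turned with the longest transcript (ratio 1.44 with the union of exons, 0.784 with the longest transcript). IDH1 was 2.08 times as high as IDH2, or 3.84 times with the longest transcript. Pyruvate carboxylase (PC) was the lowest at 15.4 TPM.

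The median of the 13 glycogen genes with a value was 18.3 TPM, close to that of all genes. However, they ran from 1.58 to 325 TPM, and 2 of them were high (15.4%, against 12.8% of all genes). The brain isoform of glycogen phosphorylase, PYGB, was at 325 TPM (318–332) and phosphoglucomutase PGM1 at 107 TPM. The liver isoform PYGL was at 5.41 TPM, so that PYGB was 60.1 times as high (51.6–70.0). This was the largest ratio of the 30 pairs, and it ran from 49.1 to 138 over the 9 libraries. PYGB had a log2 value of 13.26 at 0 h, against a lowest, median, and highest value of 12.48, 13.27, and 13.53 in the transfected libraries.

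Thymidylate synthase (TYMS, 343 TPM) and the mitochondrial enzyme SHMT2 (236 TPM) led the pentose phosphate and one-carbon list. In that list 7 of 15 genes were high (46.7%, against 12.8% of all genes). The amino acid transporter SLC7A5 was at 410 TPM and its partner SLC3A2 at 273 TPM, while the cystine transporter SLC7A11 was at 18.1 TPM. In lipid synthesis the desaturase SCD (602 TPM) and the cholesterol enzyme SQLE (433 TPM) were the highest of 23 genes. Of these 23, 6 were high (26.1%, against 12.8% of all genes). FADS2 and CPT1C were the lowest at 3.13 and 2.36 TPM. SCD was below all 8 transfected libraries at 0 h (log2 14.41, against 14.84 to 15.31).

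Iron storage and redox genes were prominent, with 12 of 20 high. The ferritin chains FTL and FTH1 were at 5343 and 2012 TPM, the quinone reductase NQO1 at 1556 TPM, and the peroxidase PRDX1 at 1192 TPM. The metallothionein MT1X was the lowest at 3.73 TPM. NQO1 was above all 8 transfected libraries (log2 15.06, against 14.27 to 14.99). Of 20 lysosomal genes 12 were high, among them the protease CTSZ (1322 TPM), the sphingolipid activator PSAP (962 TPM), and the protease CTSL (767 TPM). TFEB and the protease CTSK were the lowest at 1.53 and 1.47 TPM. Of 84 genes of cytosolic ribosomal proteins 77 were high (91.7%, against 12.8% of all genes). The median of the 84 was 547 TPM, and RPL8 (5978 TPM) and RPS18 (3261 TPM) were the highest. RPL36A was the lowest at 11.3 TPM. Many of these genes have processed pseudogenes, so the level of a single member is uncertain.

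By class, the 12038 nuclear protein-coding genes held 92.5% of the reads and 73.0% of the TPM. Pseudogenes (998 genes) held 2.33% of the reads but 10.6% of the TPM, and 39 small and other RNA genes held 0.139% of the reads and 5.09% of the TPM. The 422 long non-coding genes held 0.538% of the reads, with a median of 3.39 TPM, against 19.9 TPM for all genes. Of the 422, 13 were high, a share below the 12.8% of all genes. The 1322 symbols without a usable match took 1.44% of the reads.

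The highest long non-coding gene was SNHG6, a host of small nucleolar RNAs, at 647 TPM (629–664). It was followed by LRRC75A-AS1 (490 TPM), AC022431.1 (429 TPM), AC114498.1 (388 TPM), and the growth arrest transcript GAS5 (253 TPM). ZFAS1 (231 TPM), AC002511.1 (199 TPM), SNHG16 (178 TPM), SNHG8 (160 TPM), and LINC00657 (152 TPM), also called NORAD, completed the highest 10. Of these 10, 6 are on the list of small nucleolar RNA hosts (SNHG6, LRRC75A-AS1, GAS5, ZFAS1, SNHG16, and SNHG8). In that list 16 genes had a value and 6 were high (37.5%, against 12.8% of all genes). Exons of AL669831.3 on the other strand overlap 82.2% of AC114498.1, and other genes overlap 46.9% of ZFAS1 and 36.4% of SNHG6. SNHG6 had a log2 value of 12.41 at 0 h and stayed between 12.19 and 12.74 in the transfected libraries.

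LINC00518, a transcript used in tests that tell melanoma from nevi, was at 128 TPM and above all 8 transfected libraries (log2 10.68, against 9.82 to 10.55). The nuclear transcripts MALAT1 and NEAT1, which are abundant in many tissues, were at 26.6 and 18.7 TPM. Their order depended on the scale, since NEAT1 is the longer gene and had the higher log2 value (11.49 against 10.63). Both TPM values divide by the full annotated exon length. How much of that length the polyA reads covered was not examined, so these values do not show that either transcript was scarce. H19 was at 1.64 TPM from 31 reads and KCNQ1OT1 at 0.146 TPM. Among transcripts that host microRNAs, the protein-coding genes IARS2 (377 TPM) and MCM7 (329 TPM) were the highest and the non-coding LINC00478 (0.217 TPM) the lowest. SMC4 and DLEU2, the hosts of miR-16, were at 72.3 and 3.59 TPM. Such host levels say nothing of the mature microRNAs, which a polyA library does not measure.

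Of 16 structured RNAs 5 had a value in this polyA library. The mitochondrial ribosomal RNAs MT-RNR2 and MT-RNR1 were at 8052 and 1452 TPM, and RN7SL2, the RNA of the signal recognition particle, was at 130 TPM (115–148). RN7SK was at 9.36 TPM and BCYRN1 at 5.40 TPM. RN7SL2 moved widely between libraries, with a log2 value of 8.05 at 0 h and a lowest, median, and highest value of 6.07, 7.29, and 10.15 in the transfected libraries.

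Across genes, the 0 h library was close to the others, and most to those of the early times. Spearman's rho across genes, which are not independent replicates and share their lengths and base composition between libraries, was 0.970 to 0.995, and 65.4% to 92.9% of the genes lay within 0.5 of the 0 h log2 value. Of the 100 genes with the highest log2 value at 0 h, 94 were shared with miR-CTR at 6 h, 84 with miR-CTR at 48 h, and 78 with miR-16 at 48 h.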

How the data were processed

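Total RNA of MP41 cells (RIN > 8 per the methods) was sequenced as polyA libraries, 1 per condition. The authors deposited normalized log2 values with 2 decimals for 14839 genes in 9 libraries. The submitters' processing notes name FastQC, STAR 2.4.0a, featureCounts of Subread 1.5.0-p3, and hg38. The annotation, the strandedness, the size factors, and the gene filter are not given in the sources used here. Column numbers of the time points were matched to 6, 12, 24, and 48 h in rising order, which is an assumption for the 8 transfected libraries. The 0 h column needed none.

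At 0 h, 100% of the low values (up to 5 on the log2 scale, tolerance 0.1 reads) were whole multiples of 1.0388 on the linear scale after subtraction of 1. The values are thus log2(reads / size factor + 1), and reads were recovered by division. Rounding to 2 decimals leaves an error of up to 0.347% on a level, which the counting intervals do not cover. This step was tested on simulated data.

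TPM was computed with the union of exons of GENCODE 29 (GRCh38). Of the symbols, 12989 matched directly and 528 by a RefSeq synonym, while 33 were ambiguous and 1289 unmatched. Among the symbols, 12 read as dates, the form a spreadsheet gives to some gene names, and were left unresolved. The 41 gene lists, the members, and the threshold of 100 TPM were chosen with earlier results of these data known. Lists are described by counts and medians, and no test was made because the condition has 1 library. The genes named were drawn from the 30 of highest TPM, the key genes, the 4 highest and the 2 lowest of each list, and the 10 highest long non-coding genes. Not every gene of this rule is printed. Genes outside it were named after their values were seen. The alternatives were another length, totals without mitochondrial or weak genes, thresholds of 50 and 200 TPM, other libraries, and no subtraction of the pseudocount of 1. Tables were handled in pandas 2.3.3 and numpy 2.4.6 under Python 3.11.15, intervals came from scipy 1.17.1, and plots from matplotlib 3.10.9. Results for some genes are not reported here. Promoters came from RefSeq (GRCh38.p14).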

Additional observations from a re-analysis of the deposited data

How the results depend on the processing

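The count of listed genes at or above 100 TPM (268) was 259 to 274 when the length, the genes in the total, or the library was changed. The total fell to 182 at 200 TPM and rose to 366 at 50 TPM. By section, the count fell from 30 at 100 TPM to 18 at 200 TPM for lineage genes. It fell from 44 to 17 for signalling, from 181 to 139 for metabolism, and from 14 to 8 for non-coding genes. At 50 TPM the count for signalling rose to 84. Of the 41 lists, 19 had a count over 1.5 times away at 200 TPM, 17 at 50 TPM, 2 with the longest transcript, 4 in the 6 h miR-CTR library, and 3 in the median of the 8 transfected libraries. The 10 highest genes held 14.3% of the TPM, against 11.4% with the longest transcript as length, 11.4% without mitochondrially encoded genes, and 10.5% without genes under 200 bases, an alternative chosen after seeing the data. For the 100 highest genes the share was 33.3%, against 30.8%, 27.1%, and 29.7%. No paired analysis was possible because the 0 h library has no numbered partner and no test was made. A single library per condition gives no spread between cultures, and the levels of genes with few reads, short exons, or near-identical copies are uncertain.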

Other observations

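Outside the gene lists, several kinds of nuclear protein-coding genes were abundant at 0 h. The ones given here were picked by level after the values were seen, and no count was made over their kinds. The chaperones HSP90AA1 (5235 TPM), HSPA8 (2913 TPM), HSP90AB1 (2020 TPM), and the endoplasmic reticulum protein CALR (1972 TPM) all lay above 1000 TPM. HSP90AA1 had a log2 value of 17.50 at 0 h, above all 8 transfected libraries (16.57 to 17.29). The actins ACTG1 and ACTB were at 5023 and 2918 TPM, the tubulin TUBB at 2932 TPM, and the actin-binding peptide TMSB10 at 2605 TPM. The elongation factor EEF2 was at 2990 TPM. The secreted cytokine GDF15 (1504 TPM), the lysosomal protein LAPTM4B (1369 TPM), the cytokine MIF (1029 TPM), and the annexin ANXA5 (1612 TPM) were also among the 102 genes that reached 1000 TPM.

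Some processed pseudogenes were listed above their parent genes in TPM. EEF1A1P5 was at 5049 TPM, above EEF1A1 at 1691 TPM, and RPL7P9 was at 4566 TPM, above RPL7 at 1987 TPM. For the first pair the order was the opposite in log2 value, with 16.05 for EEF1A1 and 15.53 for EEF1A1P5. The TPM order of that pair thus depended on the lengths, 5948 bases for EEF1A1 and 1389 for EEF1A1P5. Whether these reads came from the parent genes was not tested. Entries for single microRNA precursors, all under 100 bases, were also listed with reads, such as MIR146A (606 reads, 942 TPM) and MIR29B1 (196 reads, 373 TPM). A polyA library does not measure the mature forms.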
